A study of Mus musculus with 114 samples.

Results

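Genes for building peroxisomes and for the reactions inside them were compared in fat cells of mice fed chow (CD) or food with most of its energy from fat (HFD, high fat diet). After 20 and 34 weeks most of them were lower in HFD, and after 8 weeks they were not. Tested as a change, the diet difference fell from 8 to 20 weeks in only 2 of them (6.06%, beside 1.67% of all genes). From 8 to 34 weeks it fell in 8 (24.2%, beside 15.9%). The set has 33 genes of the 29132 listed, chosen by symbol: 13 peroxins, 18 enzymes and transporters, and the membrane proteins Pxmp2 and Pxmp4. Of the 33 members, 4 were higher and 19 (57.6%) lower in HFD at 20 weeks, beside 38.3% and 18.7% of all genes tested. At 34 weeks 3 were higher and 21 (63.6%) lower, beside 27.5% and 15.7%. At 8 weeks 6 were higher and 5 (15.2%) lower, beside 29.8% and 15.1%. The 21 became 8 with each time fitted separately, beside 7.39% of all genes. With macrophage markers as a covariate they became 3, beside 3.91%. Pex3, Pex11a and Pxmp2 showed the largest decreases among the members, to 0.406, 0.42 and 0.467 of the CD level of CPM + 1 at 20 weeks. A few genes went the other way, among them Acox3 and Agps, which were higher in HFD at all 3 times.

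The mice were C57BL/6J males. Feeding began when they were 6 weeks old and ended after 8, 20 or 34 weeks, following a fast of 6 hours. Every group had 6 mice except CD at 34 weeks, which had 8, for a total of 38. RNA came from isolated perigonadal adipocytes, the fraction that floats after the fat pad is digested with collagenase, and was sequenced as polyA RNA. The labels name no engineered allele and no agent other than the diets. The methods name 2 chow products, and which mouse received which is not given in the sources used here.

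Peroxisomes are single-membrane organelles that oxidize very long chain and branched fatty acids, shorten them by β-oxidation and carry out the first steps of ether lipid (plasmalogen) synthesis. They have no genome of their own, so every matrix protein is made in the cytosol and imported. Peroxins, the products of the Pex genes, insert the membrane proteins, bind and import the matrix proteins and drive division. Many peroxisomal enzymes are known targets of the PPAR nuclear receptors, which bind with RXR to a DR1 element, a pair of AGGTCA half-sites in the same direction separated by 1 base.

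The RefSeq promoter windows of GRCm38.p6, from 250 bases before to 50 after an annotated start, covered 25 of the 33 members with 29 windows. No window of a member held a DR1 with at most 2 mismatches in its 12 half-site letters on either strand, against 3.86% of all 32851 windows and 2.81% of the 10674 windows of genes tested here. The half-site alone, AGGTCA on either strand, was in 3 member windows (10.3%), against 16.3% of all windows and 12.4% of those of tested genes. TATAAA, searched on the strand of the gene, was in none of the 29, against 8.32% of all windows and 4.24% of those of tested genes. CCAAT on either strand was in 37.9%, against 37.4% and 36.8%. These matches describe the letters of a short window and say nothing of whether a factor binds there or farther away. The 3 half-sites are shown because they are the only ones among the members, with the half-site in capitals. They lie at chr8:3467792-3467845, minus strand (Pex11g), chr2:4919008-4919045, plus strand (Phyh) and chr4:108118627-108118680, minus strand (Scp2). Scp2 itself runs from 108043830 to 108144971 on the minus strand. Its window, chr4:108118498-108118797, therefore lies inside the gene, at an internal annotated start.
Pex11g: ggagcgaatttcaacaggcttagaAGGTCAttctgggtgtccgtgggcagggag
Phyh: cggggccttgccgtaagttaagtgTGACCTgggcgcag
Scp2: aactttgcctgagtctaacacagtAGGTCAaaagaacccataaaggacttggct

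An annotated start of each of the thiolase genes Acaa1a and Acaa1b is shown because these near-identical neighbours on chromosome 9 differed in their values. The pieces run from 100 bases before to 50 after the start, with CG pairs in capitals, at chr9:119341194-119341343, plus strand and chr9:119157044-119157193, minus strand. Acaa1a begins at 119341028 on the plus strand, so its piece lies inside the gene. Acaa1b begins at 119157093 on the minus strand, within its piece. Acaa1a had 6 CG pairs in its piece and Acaa1b 3, counts that come from unlike positions in the genes. Their longest protein-coding transcripts in GENCODE vM21 were 96.6% identical over 1428 aligned bases. How the counting treated reads that fit both genes is not given in the sources used here, so the split of reads between them is uncertain.
Acaa1a: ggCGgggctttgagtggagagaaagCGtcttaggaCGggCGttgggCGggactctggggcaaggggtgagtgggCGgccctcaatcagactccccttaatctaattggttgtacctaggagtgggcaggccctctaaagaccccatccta
Acaa1b: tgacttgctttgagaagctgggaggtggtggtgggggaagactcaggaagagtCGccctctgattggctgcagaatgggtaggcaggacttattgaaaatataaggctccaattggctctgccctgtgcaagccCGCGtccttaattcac

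Values are CPM, the reads of a gene scaled so that each mouse sums to 1000000 over all genes. Each mouse had between 9275711 and 15480388 reads on genes, so 1 read was worth 0.0646 to 0.108 CPM. At 8 weeks every HFD library was deeper than every CD library (13201234 to 15480388 against 10562845 to 12611013 reads). Differences are HFD minus CD in mean log2(CPM + 1), a scale that understates the change of low genes, and are given ± the standard error (SE) of the fit. Adjusted p-values come from limma with Benjamini-Hochberg adjustment over 10343 genes. A gene is called where its adjusted p is under 0.05. All 33 members passed the filter on low values, and no library was dropped. The 3 values given for a group are those of the lowest, the median and the highest mouse. Coordinates follow the RefSeq annotation (GRCm38.p6).

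Per kilobase of exon, the most abundant members in CD mice at 8 weeks were enzymes and 1 transporter: Scp2 at 262, Ech1 at 227, Abcd2 at 162, Phyh at 143 and Hsd17b4 at 126 CPM per kilobase. Among peroxins the highest were Pex19 at 77, Pex16 at 59.4 and Pex5 at 41.7 CPM per kilobase. Pex26, Abcd4, Pex10 and Pex7 were the lowest members, between 1.65 and 2.48 CPM per kilobase. Exon lengths are from GENCODE vM21, not from the older release the reads were counted on. Exons of 14 members overlap those of another gene there, 5 of them a protein-coding gene. Besides the cases named below, the share of exon bases was 11.5% in Pecr, 10.8% in Pxmp2 and 7.63% in Crat, all with a gene on the other strand, and 7.81% in Gnpat with Gm16163 on the same strand. It was 7.15% in Pex16 with Large2, 6.57% in Acaa1a with Myd88, 6.08% in Acox3 and 5.25% in Pex3 with Adat2, again on the other strand, and at most 2.35% in Pex13, Pex26 and Far1. Reads of such partners cannot be told apart here, since strand use in the counting is not given in the sources used here.

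At 8 weeks, 6 members (18.2%) were higher and 5 (15.2%) lower in HFD, beside 29.8% and 15.1% of all genes tested. The median difference of the members was 0.03, beside 0.11 over all genes. At 20 weeks, 4 members (12.1%) were higher and 19 (57.6%) lower, beside 38.3% and 18.7% of all genes, and the medians were -0.40 and 0.14. At 34 weeks, 3 members (9.09%) were higher and 21 (63.6%) lower, beside 27.5% and 15.7% of all genes, and the medians were -0.38 and 0.07. The share of members that was lower was thus near the background at 8 weeks and above it at both later times. Pex3, Pex5, Scp2, Phyh and Crat were lower at all 3 times (15.2% of members, 3.38% of all genes), and Acox3 and Agps higher (6.06% of members, 12.2% of all genes). Pex2, Abcd3, Abcd4 and Ech1 were called at no time.

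**Figure D1:**
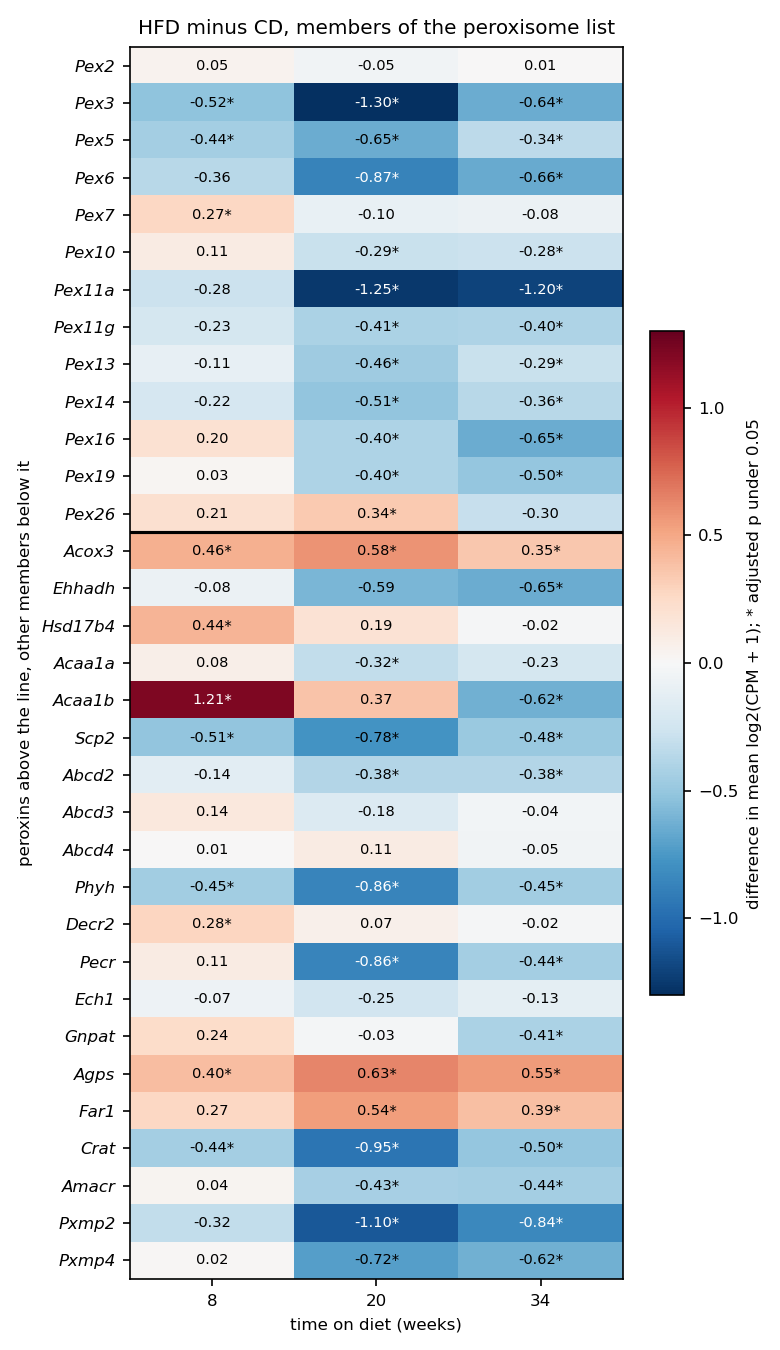
HFD minus CD in mean log2(CPM + 1) for each of the 33 members (rows) at 8, 20 and 34 weeks (columns), with an asterisk at an adjusted p under 0.05 and the peroxins above the black line. Blue (lower in HFD) fills most cells at 20 and 34 weeks, with 19 and 21 calls, and the 8 week column is mixed, with 6 higher and 5 lower.

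The 2 classes were counted apart. Of the 13 peroxins, 1 was higher and 2 (15.4%) lower at 8 weeks. At 20 weeks 1 was higher and 10 (76.9%) lower, and at 34 weeks 0 higher and 10 (76.9%) lower. The other 20 members gave 5 higher and 3 (15%) lower, 3 higher and 9 (45%) lower, and 3 higher and 11 (55%) lower. Of all genes, 29.8%, 38.3% and 27.5% were higher and 15.1%, 18.7% and 15.7% lower. Lower calls at 8 weeks were thus near the background in both classes. The median differences were -0.11, -0.41 and -0.36 in peroxins and 0.06, -0.29 and -0.40 in the other members. The lower peroxins at 8 weeks were 4 with TMM factors, median-of-ratios factors or separate fits, beside 22.3%, 21.2% and 19% of all genes. With the macrophage covariate they were 1 at 8 weeks, beside 15.3%, and 5 at 20 weeks, beside 10.8%. At 34 weeks they were 5 with separate fits, beside 7.39%, and 1 with the covariate, beside 3.91%. No test was made between these chosen classes.

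In single mice the mean log2(CPM + 1) of the 13 peroxins at 20 weeks ran from 5.43 to 6.05 in CD and from 5.23 to 5.52 in HFD mice. That of the other members ran from 6.59 to 6.93 and from 6.38 to 6.69. The peroxin mean minus the mean of the other members was -0.99 to -0.80 in CD and -1.15 to -1.02 in HFD mice at 8 weeks, without overlap. It was -1.16 to -0.87 and -1.26 to -1.15 at 20 weeks, and -1.07 to -0.69 and -1.20 to -1.0 at 34 weeks, when the diets overlapped. At 34 weeks the HFD mice spread widely, from 5.08 to 5.77 in the peroxin mean.

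**Figure D2:**
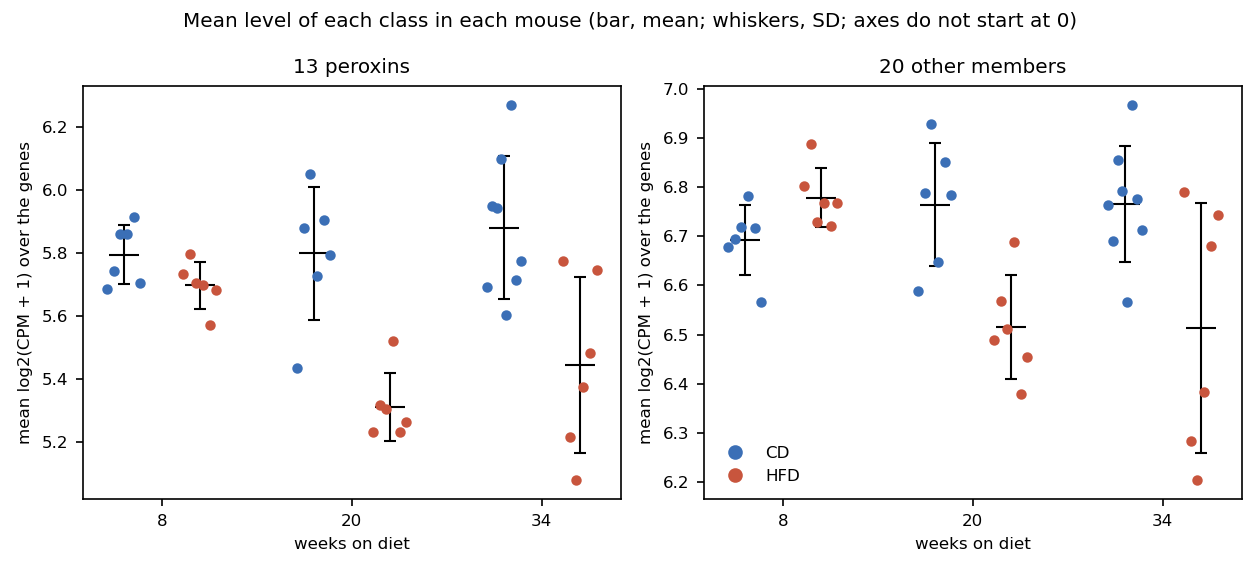
Mean log2(CPM + 1) over the 13 peroxins (left) and the 20 other members (right) in each mouse, by weeks on diet, with CD in blue and HFD in red, a bar at the group mean and whiskers of 1 SD. The HFD peroxin means drop from 5.57 to 5.80 at 8 weeks to 5.23 to 5.52 at 20 weeks, and the CD groups stay between 5.43 and 6.27.

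Many markers of other cells differed between the diets in these libraries. Of all genes, 29.8%, 38.3% and 27.5% were higher and 15.1%, 18.7% and 15.7% lower in HFD at 8, 20 and 34 weeks. All 8 markers of lipid-associated macrophages were higher in HFD at each time, with medians of 2.88, 5.11 and 2.35, and none was at 0. Their summed level was 1550 to 1910 CPM in CD and 2750 to 6720 CPM in HFD mice at 8 weeks, 1590 to 4370 and 7850 to 17200 CPM at 20 weeks, and 3400 to 12400 and 9110 to 23100 CPM at 34 weeks. Of 13 symbols listed for general macrophage markers 11 were in the table, none at 0. The missing ones, Adgre1 and Emr1, are names of a single gene, which the macrophage covariate used below therefore lacks. In HFD 6, 7 and 9 of these markers were higher, with a lower call for Cd163 at 20 weeks. Their sums were 426 to 1700 and 1040 to 2860 CPM, 1010 to 3120 and 3910 to 8050 CPM, and 1020 to 10700 and 4400 to 12700 CPM.

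Endothelial markers were higher in 5, 4 and 5 of 5, and progenitor and fibroblast markers in 3, 5 and 2 of 5 tested, beside 29.8%, 38.3% and 27.5% of all genes. Mesothelial markers were higher in 2, 0 and 0 of 3 tested and erythroid markers in 1, 0 and 2 of 2 tested, all at low levels, with sums of at most 54.7 and 198 CPM. T and B cell and epididymis and testis markers did not pass the filter. The 10 adipocyte markers were abundant in every group, at summed levels of 16700 to 68700 CPM. In HFD 2, 7 and 9 of them were lower, beside 15.1%, 18.7% and 15.7% of all genes, and 1, 1 and 0 higher. Lower calls were thus near the background at 8 weeks. Their medians were -0.29, -0.72 and -0.60, values that stand beside the members' -0.40 and -0.38 at the later times. In such mixed RNA, fewer cells of a type and less RNA per cell cannot be told apart.

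With the mean of the macrophage markers as a covariate, 7 members were higher and 1 lower at 8 weeks, beside 23.7% and 15.3% of all genes. At 20 weeks 4 were higher and 11 lower, beside 24.3% and 10.8%, and at 34 weeks 1 was higher and 3 lower, beside 7% and 3.91%. Calls over all genes thus also became fewer at 20 and 34 weeks. Lower calls at 8 weeks did not, at 15.1% of all genes without and 15.3% with the covariate. The members' medians were then 0.20, -0.12 and -0.16, beside 0.07, 0.09 and 0.03 over all genes. The members lower in that fit were Pex5 at 8 weeks, Pex3, Pex5, Pex6, Pex11a, Pex14, Scp2, Phyh, Pecr, Crat, Pxmp2 and Pxmp4 at 20 weeks, and Pex11a, Pxmp2 and Pxmp4 at 34 weeks. Those higher were Pex7, Acox3, Hsd17b4, Acaa1b, Abcd3, Decr2 and Gnpat at 8 weeks, Pex26, Acox3, Hsd17b4 and Agps at 20 weeks, and Agps at 34 weeks. Every other call was lost there. The marker mean itself differs between the diets, by 1.07, 1.63 and 1.28 in log2(CPM + 1), and the part of other cells in these results was not tested.

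**Figure D3:**
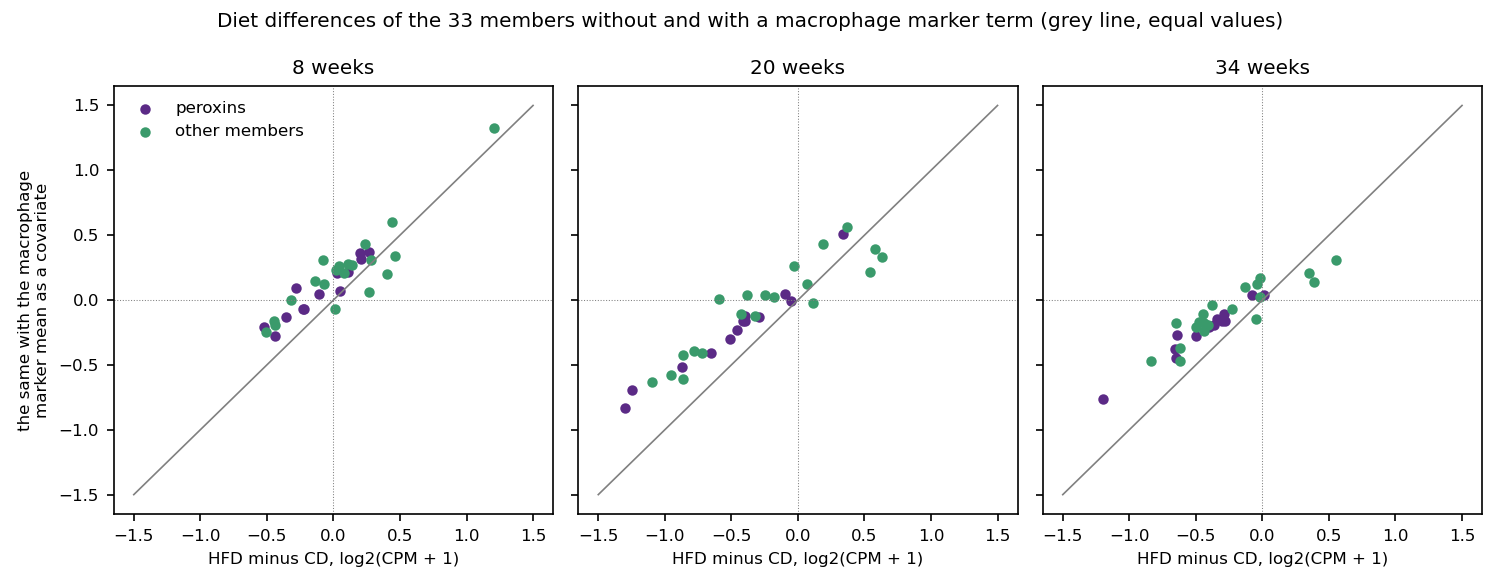
Diet differences of the 33 members in log2(CPM + 1) from the fit without (x axis) and with (y axis) the macrophage marker mean as a covariate, at 8, 20 and 34 weeks, with peroxins in purple and other members in green. Every member called lower lies above the grey line of equal values, so each called decrease is smaller with the covariate, and the median of the members changes from -0.40 to -0.12 at 20 weeks.

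Pex5 and Pex7 are the soluble receptors of matrix import. Pex5 binds the common C-terminal signal, and Pex7 binds a rarer N-terminal signal, carried by thiolase, Phyh and Agps, and enters with Pex5. Pex5 (chr6:124396816-124415944, minus strand) was at 133, 167 and 183 CPM in CD and 111, 119 and 134 CPM in HFD mice at 8 weeks. At 20 weeks it was at 123, 168 and 187 CPM in CD and 90.6, 97.8 and 144 CPM in HFD mice, and at 34 weeks at 95.3, 108 and 144 CPM in CD and 76.7, 84.6 and 114 CPM in HFD mice. Every HFD mouse was below the CD mean at each time, and the diets overlapped at each. The differences were -0.44 ± 0.12, -0.65 ± 0.12 and -0.34 ± 0.11 (adjusted p = 0.00308, 2e-05 and 0.0128), and with the macrophage covariate they were -0.28, -0.41 and -0.15, the last with an adjusted p of 0.397.

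Pex7 (chr10:19860090-19907674, minus strand) went the other way at 8 weeks, with 28.1, 30.5 and 31.6 CPM in CD and 33, 35.7 and 43 CPM in HFD mice. The groups did not overlap, and the difference was 0.27 ± 0.10 (adjusted p = 0.0295). It was at 28.9, 32.9 and 37.6 CPM in CD and 28.3, 30.8 and 32.3 CPM in HFD mice at 20 weeks and at 32.4, 38.1 and 47.7 CPM in CD and 27.7, 38.4 and 46.8 CPM in HFD mice at 34 weeks, with differences of -0.10 ± 0.10 and -0.08 ± 0.10 that were not called. The call at 8 weeks was lost under both other scalings and in edgeR and DESeq2, and without CD mouse 5 or 6 or HFD mouse 3 or 4 (adjusted p up to 0.09).

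Docking of the loaded receptor at the membrane falls to Pex13 and Pex14. Pex14 (chr4:148960535-149099843, minus strand) was at 65.6, 66.8 and 73.4 CPM in CD and 49.4, 59.4 and 67 CPM in HFD mice at 8 weeks, which was not called (-0.22 ± 0.10, adjusted p = 0.0902). By 20 weeks it was at 59.3, 74.5 and 79 CPM in CD and 46.4, 49.8 and 54 CPM in HFD mice, without overlap, and at 34 weeks at 53.9, 65.4 and 92.9 CPM in CD and 42.2, 50.6 and 68.4 CPM in HFD mice. It was lower at both later times, with differences of -0.51 ± 0.10 and -0.36 ± 0.10 (adjusted p = 0.000103 and 0.00355). In GENCODE vM21, 28.3% of its exon bases overlap exons of Gm17029 on the other strand. Pex13 showed the same calls, with differences of -0.11 ± 0.11, -0.46 ± 0.11 and -0.29 ± 0.10, the last lost without HFD mouse 3 or 4 (adjusted p up to 0.0853).

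The RING peroxins Pex2 and Pex10 mark the receptor with ubiquitin for recycling, and the ATPase subunit Pex6, held at the membrane by Pex26, pulls it out. Pex6 (chr17:46711476-46725543, plus strand) was at 62.1, 82.9 and 99.2 CPM in CD and 50.5, 59.9 and 94 CPM in HFD mice at 8 weeks, a difference that was not called (-0.36 ± 0.17, adjusted p = 0.0759). At 20 weeks the mice were at 64, 83.9 and 130 CPM in CD and 42.3, 45.9 and 61.3 CPM in HFD mice, and at 34 weeks at 51.9, 77.6 and 108 CPM in CD and 37.8, 45.2 and 61 CPM in HFD mice. The diets did not overlap at 20 weeks, and Pex6 was lower at both later times, with differences of -0.87 ± 0.17 and -0.66 ± 0.16 (adjusted p = 5.21e-05 and 0.00142). With the macrophage covariate the value at 34 weeks was -0.38 (adjusted p = 0.107).

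Its anchor Pex26 gave another pattern, with means of 6.63 ± 1.51 CPM (SD) in CD and 8.59 ± 1.48 CPM in HFD mice at 20 weeks. The difference of 0.34 ± 0.15 barely passed (adjusted p = 0.0495) and was lost under both other scalings and when any 1 of 25 mice was left out (adjusted p up to 0.12). Pex10 was called lower at 20 and 34 weeks (-0.29 ± 0.11 and -0.28 ± 0.10), and each call was lost without any 1 of 4 mice: at 20 weeks CD mouse 2, 3 or 5 or HFD mouse 2 (adjusted p up to 0.0972), at 34 weeks CD mouse 1 or 6 or HFD mouse 2 or 3 (up to 0.116). Pex2 was called at no time, with differences of 0.05 ± 0.08, -0.05 ± 0.08 and 0.01 ± 0.07.

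Pex3, Pex16 and Pex19 insert peroxisomal membrane proteins: Pex19 carries them through the cytosol, and Pex3, brought in by Pex16, receives it. Pex3 (chr10:13523842-13553142, minus strand) had the largest decrease among the members at 20 weeks, when it was at 69.1, 116 and 169 CPM in CD and 42.6, 43.4 and 54.5 CPM in HFD mice. The highest HFD mouse was below the lowest CD mouse. It was at 80.3, 94.6 and 116 CPM in CD and 56, 62.9 and 83.6 CPM in HFD mice at 8 weeks and at 47.7, 68.4 and 118 CPM in CD and 35.9, 43.4 and 62.1 CPM in HFD mice at 34 weeks, with overlap between the diets. The differences were -0.52 ± 0.17, -1.30 ± 0.17 and -0.64 ± 0.16 (adjusted p = 0.0151, 3.28e-07 and 0.00209), and all 6 HFD mice were below the CD mean each time. With the macrophage covariate they were -0.21, -0.83 and -0.27, and only the middle one was called (adjusted p = 9.42e-05).

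Pex16 (chr2:92374676-92381220, plus strand) was at 96.1, 102 and 125 CPM in CD and 99.4, 118 and 153 CPM in HFD mice at 8 weeks, which was not called (0.20 ± 0.17). At 20 weeks it was at 104, 126 and 160 CPM in CD and 78.7, 100 and 110 CPM in HFD mice, and at 34 weeks at 120, 166 and 231 CPM in CD and 72.2, 105 and 156 CPM in HFD mice. The CD level was higher at 34 than at 8 weeks by 0.68 ± 0.16 (adjusted p = 0.000519), and the diets differed by -0.40 ± 0.17 and -0.65 ± 0.16 at the later times (adjusted p = 0.0472 and 0.00203). The first of these calls was lost when any 1 of 17 mice was left out (adjusted p up to 0.114), and the second was kept without any 1 mouse. Pex19, the most abundant peroxin per kilobase, was lower at the later times, with differences of -0.40 ± 0.13 and -0.50 ± 0.12 (adjusted p = 0.00804 and 0.00139) and was at 0.03 ± 0.13 at 8 weeks.

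Pex11 proteins elongate and divide the organelle. Pex11a (chr7:79735957-79743131, minus strand), the form known to be induced by PPAR ligands, was at 46.6, 67 and 73.9 CPM in CD and 43.6, 50.8 and 67 CPM in HFD mice at 8 weeks. After 20 weeks it was at 34.9, 65.8 and 106 CPM in CD and 19.7, 26.9 and 34.6 CPM in HFD mice, and at 34 weeks at 37.7, 52.7 and 125 CPM in CD and 18.5, 25.2 and 36.4 CPM in HFD mice. It was the one member whose diets did not overlap at 34 weeks, and they did not overlap at 20 weeks either. The difference was -0.28 ± 0.24 at 8 weeks (adjusted p = 0.352) and -1.25 ± 0.24 and -1.20 ± 0.22 later (adjusted p = 4.67e-05 and 0.00015). With the macrophage covariate the later values were -0.69 and -0.76 and both were still called (adjusted p = 0.0208 and 0.0178).

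Pex11g was lower at the later times (-0.41 ± 0.15 and -0.40 ± 0.14), lost without CD mouse 5 or HFD mouse 6 at 20 weeks (adjusted p up to 0.055) and without CD mouse 2 or 6 or HFD mouse 2 or 3 at 34 weeks (up to 0.0987). In GENCODE vM21, 41.1% of its exon bases overlap exons of Gm44775 on the other strand.

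**Figure D4:**
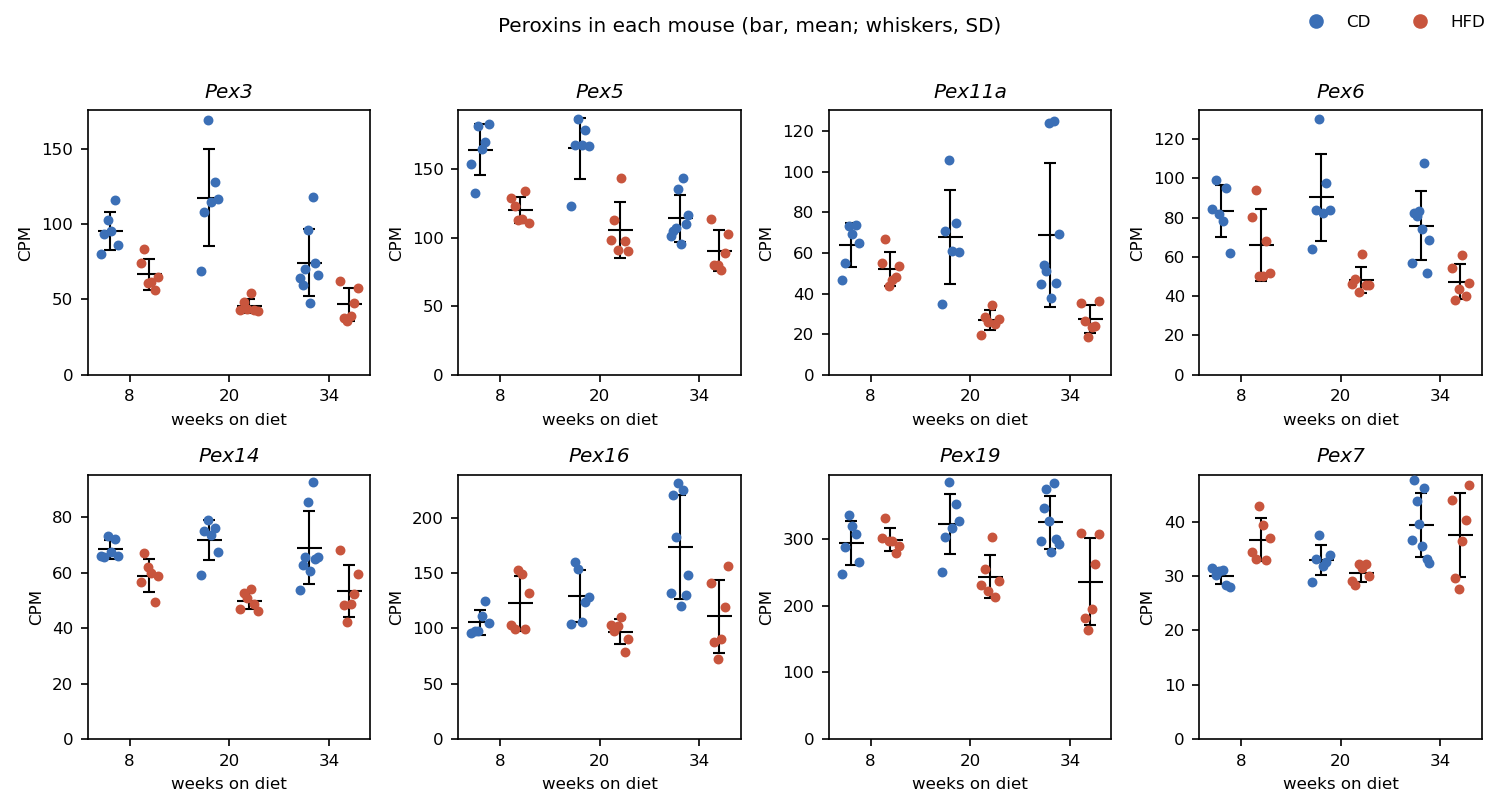
CPM of 8 peroxins in each mouse (y axes from 0) by weeks on diet (x axes), with CD in blue and HFD in red, a bar at the mean and whiskers of 1 SD. The HFD mice lie below every CD mouse in Pex3, Pex6, Pex11a and Pex14 at 20 weeks, Pex11a also at 34 weeks, and Pex7 is above the CD mice at 8 weeks, when its HFD mice start at 33 CPM.

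In the β-oxidation spiral an oxidase makes the first step, a bifunctional enzyme the middle steps and a thiolase the last. Acox3 (chr5:35582981-35614208, plus strand), an oxidase of branched-chain acyl-CoAs, was at 45.8, 56.3 and 65.1 CPM in CD and 68.7, 77.7 and 83.7 CPM in HFD mice at 8 weeks and at 45.2, 59.3 and 67 CPM in CD and 79.2, 87.1 and 94.5 CPM in HFD mice at 20 weeks. The diets did not overlap at either time, and at 34 weeks, when they did, it was at 53.4, 74.3 and 91.6 CPM in CD and 70.8, 91.4 and 119 CPM in HFD mice. It was higher by 0.46 ± 0.13, 0.58 ± 0.13 and 0.35 ± 0.12 (adjusted p = 0.00397, 0.000243 and 0.0157). The call at 34 weeks was lost under both other scalings and without HFD mouse 2 or 3 (adjusted p up to 0.0689).

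Of the bifunctional enzymes, Hsd17b4 was higher at 8 weeks, with means of 429 ± 22.3 CPM (SD) in CD and 582 ± 45.5 CPM in HFD mice and no overlap. The difference was 0.44 ± 0.12 (adjusted p = 0.00322), with 0.19 ± 0.12 and -0.02 ± 0.11 later, neither called. Ehhadh varied widely between mice, from 51.2 to 176 CPM in the CD mice at 20 weeks. Its differences were -0.08 ± 0.27, -0.59 ± 0.27 and -0.65 ± 0.25, of which the last was called (adjusted p = 0.0373) and was lost without CD mouse 4, 6, 7 or 8 or HFD mouse 2, 3 or 4 (adjusted p up to 0.125).

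Acaa1b (chr9:119148043-119157093, minus strand), a thiolase, had the largest increase of any member and changed direction with time. At 8 weeks it was at 36.8, 49.4 and 53.4 CPM in CD and 93.3, 106 and 145 CPM in HFD mice, without overlap. At 20 weeks it was at 51.9, 70 and 78.2 CPM in CD and 70.8, 82.9 and 114 CPM in HFD mice, and at 34 weeks at 67.7, 115 and 137 CPM in CD and 36.8, 73.6 and 122 CPM in HFD mice. The CD mice were higher at 34 than at 8 weeks by 1.15 ± 0.20 (adjusted p = 1.56e-05), and the HFD mice were lower, with a difference of -0.68 ± 0.22 (adjusted p = 0.00925).

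The diet differences of Acaa1b were thus 1.21 ± 0.22, 0.37 ± 0.22 and -0.62 ± 0.20 (adjusted p = 6.7e-05, 0.144 and 0.0149), and the call at 34 weeks was lost without HFD mouse 2 or 3 (adjusted p up to 0.082) and with the macrophage covariate (-0.47, adjusted p = 0.187). Acaa1a, with an annotated start shown above, was at 0.08 ± 0.11, -0.32 ± 0.11 and -0.23 ± 0.10, and was called at 20 weeks (adjusted p = 0.0132). In GENCODE vM21, exons of Dlec1 on the other strand cover 11.4% of the exon bases of Acaa1b.

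Scp2 (chr4:108043830-108144971, minus strand), which encodes a sterol carrier protein and the thiolase for branched chains, was the most abundant member per kilobase. It was at 807, 921 and 1020 CPM in CD and 514, 613 and 817 CPM in HFD mice at 8 weeks. By 20 weeks it was at 675, 879 and 1040 CPM in CD and 441, 472 and 702 CPM in HFD mice, and at 34 weeks at 582, 650 and 1130 CPM in CD and 354, 533 and 705 CPM in HFD mice. All 6 HFD mice were below the CD mean at each time, and the diets overlapped at each. The differences were -0.51 ± 0.16, -0.78 ± 0.16 and -0.48 ± 0.15 (adjusted p = 0.0115, 0.000124 and 0.0106), the last lost without HFD mouse 3 (adjusted p = 0.0538).

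Transporters of the ABCD family carry acyl-CoAs across the membrane, except Abcd4, which is known from lysosomes. Abcd2, which takes very long chains, was called lower at the later times (-0.38 ± 0.16 and -0.38 ± 0.15, adjusted p = 0.04 and 0.0381). Each call was lost without any 1 of several mice, 8 at 20 weeks (adjusted p up to 0.0947) and 7 at 34 weeks (up to 0.148), and with the macrophage covariate (0.04 and -0.04). Abcd3 and Abcd4 were called at no time and lay between -0.18 and 0.14.

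Phyh and Amacr prepare branched chains, by α-oxidation and by turning the chain's stereochemistry. Phyh (chr2:4918996-4938743, plus strand) was at 255, 267 and 298 CPM in CD and 138, 208 and 278 CPM in HFD mice at 8 weeks. At 20 weeks it was at 243, 267 and 307 CPM in CD and 117, 146 and 216 CPM in HFD mice, without overlap, and at 34 weeks at 142, 194 and 248 CPM in CD and 101, 147 and 196 CPM in HFD mice. It was lower each time, with differences of -0.45 ± 0.17, -0.86 ± 0.17 and -0.45 ± 0.16 (adjusted p = 0.0341, 8.56e-05 and 0.0241). The call at 8 weeks was lost without CD mouse 2 or 4 or HFD mouse 3, 4 or 6 (adjusted p up to 0.119) and that at 34 weeks without CD mouse 3 or 4 or HFD mouse 2 or 3 (up to 0.0993). Amacr was lower at the later times, with differences of -0.43 ± 0.14 and -0.44 ± 0.13 (adjusted p = 0.0113 and 0.0089). Both calls were lost with the macrophage covariate (-0.11 and -0.18, adjusted p = 0.602 and 0.382), and that at 34 weeks also in separate fits.

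Decr2, Pecr and Ech1 act on double bonds of the chain. Pecr (chr1:72259172-72284321, minus strand) was at 12.1, 13.7 and 15.4 CPM in CD and 11.9, 15.2 and 19.4 CPM in HFD mice at 8 weeks. The 6 HFD mice at 20 weeks were close together, at 10.4, 10.8 and 11.2 CPM, all below the CD mice at 14.1, 20.8 and 28.5 CPM. At 34 weeks the mice were at 13.5, 20.3 and 27.3 CPM in CD and 9.34, 14.9 and 20.3 CPM in HFD mice, with overlap. The differences were 0.11 ± 0.17, -0.86 ± 0.17 and -0.44 ± 0.16 (adjusted p = 0.631, 9.04e-05 and 0.0274), the last lost without CD mouse 2, 3 or 6 or HFD mouse 2 or 3 (adjusted p up to 0.109). Decr2 was higher at 8 weeks (0.28 ± 0.09, adjusted p = 0.0127), without overlap, a call lost under both other scalings, and Ech1 was called at no time (-0.07 ± 0.15, -0.25 ± 0.15 and -0.13 ± 0.14).

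Crat (chr2:30400476-30416017, minus strand), the carnitine acetyltransferase that moves short acyl groups out of peroxisomes and mitochondria, was at 397, 448 and 545 CPM in CD and 276, 315 and 509 CPM in HFD mice at 8 weeks. At 20 weeks the values were 370, 475 and 578 CPM in CD and 219, 236 and 312 CPM in HFD mice, without overlap, and at 34 weeks 264, 321 and 577 CPM in CD and 196, 250 and 306 CPM in HFD mice. Crat was lower each time, with differences of -0.44 ± 0.15, -0.95 ± 0.15 and -0.50 ± 0.14 (adjusted p = 0.0199, 4.22e-06 and 0.00529). The call at 8 weeks was lost without CD mouse 3 or HFD mouse 3, 4 or 6 (adjusted p up to 0.0592).

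The 3 ether lipid enzymes did not move together. Gnpat and Agps make the first 2 steps inside the peroxisome, and Far1 supplies the fatty alcohol. Agps (chr2:75832177-75931350, plus strand) was at 38.6, 43.1 and 52.3 CPM in CD and 51.4, 57.7 and 67.5 CPM in HFD mice at 8 weeks, and at 37.9, 39.5 and 53.6 CPM in CD and 60.9, 64.3 and 69 CPM in HFD mice at 20 weeks, without overlap. At 34 weeks it was at 38.3, 45.4 and 59.7 CPM in CD and 52.4, 69.8 and 88.4 CPM in HFD mice. Agps was higher by 0.40 ± 0.12, 0.63 ± 0.12 and 0.55 ± 0.11 (adjusted p = 0.0065, 3.11e-05 and 0.000274), and all 6 HFD mice were above the CD mean at each time. With the macrophage covariate the differences were 0.20, 0.33 and 0.31, of which the later 2 were called.

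Far1 (chr7:113513719-113571506, plus strand) was at 30.4, 36.6 and 44.1 CPM in CD and 36.7, 44.7 and 53.5 CPM in HFD mice at 8 weeks, at 24.1, 34.3 and 47 CPM in CD and 43.7, 52 and 55.6 CPM in HFD mice at 20 weeks, and at 22.5, 35 and 43.9 CPM in CD and 30.1, 42.6 and 60.8 CPM in HFD mice at 34 weeks, with overlap each time. It was called higher at the later times, by 0.54 ± 0.15 and 0.39 ± 0.14 (adjusted p = 0.00218 and 0.0192), but not with the macrophage covariate (0.22 and 0.14). The later call was also lost without CD mouse 6 or HFD mouse 2 or 3 (adjusted p up to 0.0854). Gnpat was at 0.24 ± 0.12 and -0.03 ± 0.12 at 8 and 20 weeks, neither called. It was lower at 34 weeks, with a difference of -0.41 ± 0.11 (adjusted p = 0.00338). Its means were then 327 ± 49.3 CPM (SD, n = 8) in CD and 250 ± 65.9 CPM in HFD mice. That call was lost in separate fits and with the macrophage covariate (-0.19, adjusted p = 0.243).

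Pxmp2, a channel-forming membrane protein, and Pxmp4 were both lower at the later times. Pxmp2 (chr5:110274286-110286222, minus strand) was at 31.1, 43 and 50.3 CPM in CD and 23.9, 34.2 and 40.4 CPM in HFD mice at 8 weeks. After 20 weeks it was at 37.3, 46.9 and 50.6 CPM in CD and 16.8, 21.1 and 24.7 CPM in HFD mice, without overlap, and at 34 weeks at 30.2, 45 and 59.2 CPM in CD and 16, 22.1 and 36.2 CPM in HFD mice. The differences were -0.32 ± 0.18 (adjusted p = 0.153), -1.10 ± 0.18 (adjusted p = 6.52e-06) and -0.84 ± 0.17 (adjusted p = 0.000322).

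Pxmp4 (chr2:154585758-154603730, minus strand) was at 96.5, 113 and 131 CPM in CD and 108, 118 and 120 CPM in HFD mice at 8 weeks, with the HFD mice inside the CD range. At 20 weeks it was at 100, 118 and 139 CPM in CD and 64.5, 74.5 and 76.1 CPM in HFD mice, without overlap, and at 34 weeks at 80.7, 114 and 136 CPM in CD and 52.7, 70.8 and 99.7 CPM in HFD mice. It was lower at the later times, with differences of -0.72 ± 0.12 and -0.62 ± 0.12 (adjusted p = 1.23e-05 and 0.000176). Both genes were still called at both later times with the macrophage covariate, at -0.63 and -0.47 for Pxmp2 and -0.41 and -0.37 for Pxmp4. Pex11a was the other member lower at both times in that fit.

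**Figure D5:**
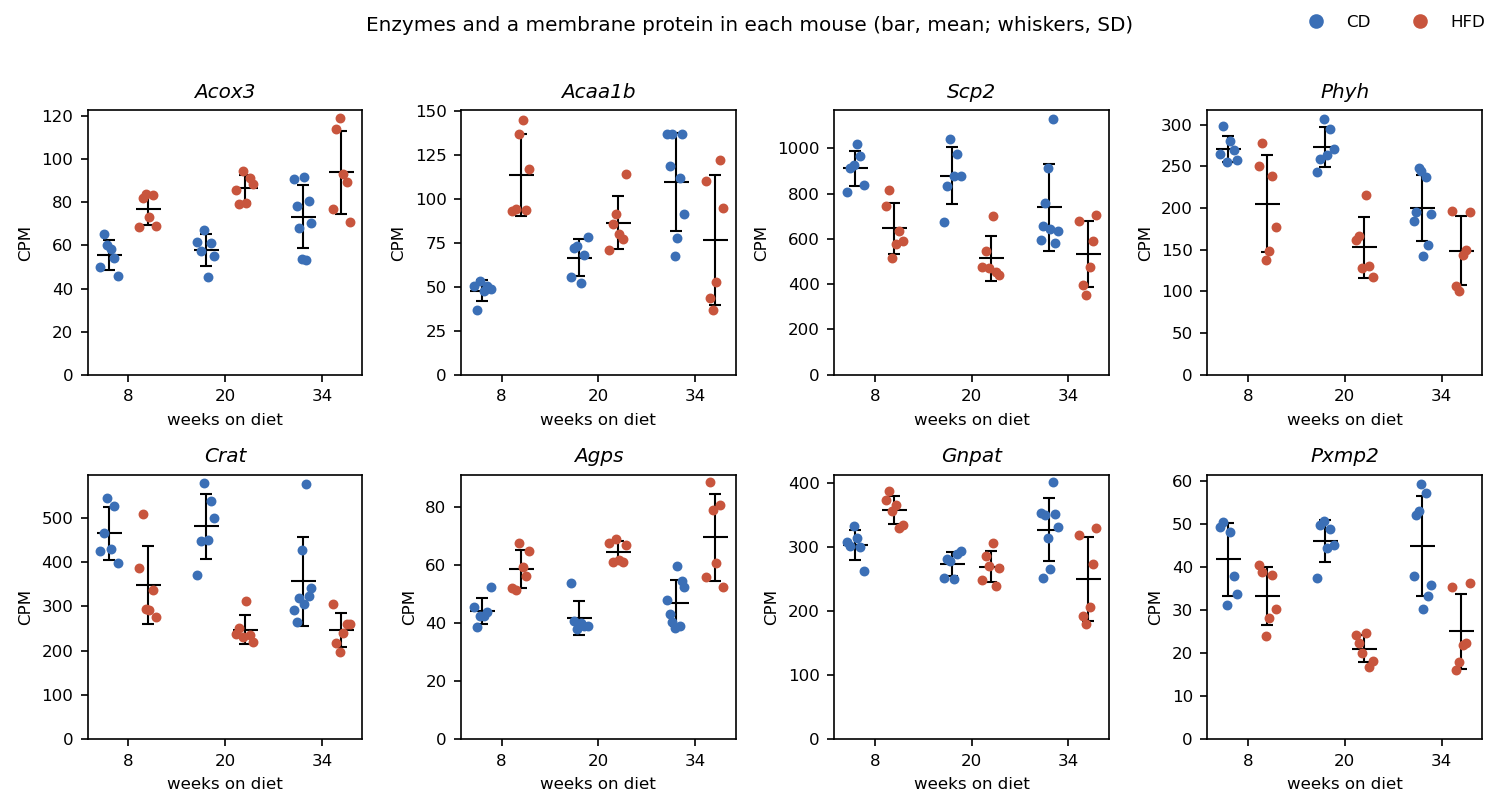
CPM of 7 enzymes and Pxmp2 in each mouse (y axes from 0) by weeks on diet (x axes), with CD in blue and HFD in red, a bar at the mean and whiskers of 1 SD. Acox3 and Agps lie higher in HFD, Scp2, Phyh, Crat and Pxmp2 lower at 20 weeks, and Acaa1b starts higher in HFD at 8 weeks (113 against 47.9 CPM) and ends lower at 34 weeks (76.7 against 110 CPM).

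Counted without the model, 5 members were higher in every HFD mouse than in any CD mouse at 8 weeks (15.2%, beside 15.7% of all genes) and 0 were lower (7.14% of all genes). They were Pex7, Acox3, Hsd17b4, Acaa1b and Decr2. At 20 weeks 2 were higher (6.06%, beside 26.1%) and 11 lower (33.3%, beside 11.1%), the latter being Pex3, Pex6, Pex11a, Pex14, Acaa1a, Phyh, Pecr, Crat, Amacr, Pxmp2 and Pxmp4. At 34 weeks 0 were higher (1.47% of all genes) and Pex11a alone was lower (3.03%, beside 0.986%).

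The differences between times were tested as interaction terms. From 8 to 20 weeks the diet difference fell in 2 members, Pecr (-0.97 ± 0.25, adjusted p = 0.0223) and Pxmp4 (-0.75 ± 0.18, adjusted p = 0.019), and rose in 0, beside 1.67% and 2.81% of all genes. That of Pecr was lost without CD mouse 3 of 20 weeks (adjusted p = 0.0533). So the lower calls of most other members at 20 weeks were not shown to differ from their values at 8 weeks. The count was 7 without CD mouse 1 of 20 weeks, which had the lowest peroxin mean of that group, 4 without CD mouse 5 or HFD mouse 6 of 34 weeks, and 1 without CD mouse 3 of 20 weeks.

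Between 34 and 8 weeks the diet difference was lower in 8 members (24.2%, beside 15.9% of all genes) and higher in 0 (13.0% of all genes). The largest was that of Acaa1b at -1.83 ± 0.30 (adjusted p = 6.39e-05), followed by Pex11a at -0.92 ± 0.33 and Pex16 at -0.84 ± 0.24 (adjusted p = 0.0328 and 0.00767). Gnpat was at -0.65 ± 0.16, Pxmp4 at -0.64 ± 0.17, Pex19 at -0.53 ± 0.17, and Hsd17b4 at -0.45 ± 0.16 (adjusted p = 0.00297, 0.00576, 0.0221 and 0.0305). That of Pex10 was -0.40 ± 0.15 and only just passed (adjusted p = 0.0486). It was lost in 8 of 9 other settings, the pseudocount of 0.5 included, and without any 1 of 27 mice (adjusted p up to 0.111). The call of Hsd17b4 was lost in 5 other settings and without any 1 of 6 mice (up to 0.0773), that of Pex11a in 4 and without any 1 of 5 mice (up to 0.0713), and that of Pex19 in 2 and without HFD mouse 2 or 3 (up to 0.0568). The count was 4 and 5 without HFD mouse 3 or 2 of 34 weeks and 13 without HFD mouse 1 or 6. Acaa1b, Gnpat, Pxmp4 and Pex16 kept the call without any 1 mouse.

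Between 34 and 20 weeks it was lower in Pex26 (-0.63 ± 0.20, adjusted p = 0.038) and Acaa1b (-0.99 ± 0.30, adjusted p = 0.0293) and higher in 0 members, beside 6.31% and 4.22% of all genes. Both calls rested on single mice, and leaving out any 1 of 6 gave a count of 0: the call of Pex26 was lost without each of 13 mice (adjusted p up to 0.0784) and that of Acaa1b without each of 6 (up to 0.0617).

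Within CD mice no member was called between 20 and 8 weeks, beside 1.70% of all genes higher and 1.88% lower. In limma 4 members had an unadjusted p under 0.05 (Pex2, Pex26, Acaa1b and Pecr), edgeR called 0, and DESeq2 called 1, Pecr. At 34 against 8 weeks 11 members were higher and 6 lower in CD mice, beside 40.1% and 24.6% of all genes. The 11 included Acaa1b and Pex16, given above, and Amacr (0.58 ± 0.13, adjusted p = 0.00037).

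The 6 that were lower with time in CD mice were Ehhadh (-0.63 ± 0.25), Abcd2 (-0.54 ± 0.15), Pex5 (-0.53 ± 0.11), Phyh (-0.46 ± 0.16), Crat (-0.42 ± 0.14) and Pex3 (-0.40 ± 0.16). Pex3, Pex5, Phyh and Crat are 4 of the 5 genes that were lower in HFD at all 3 times, a comparison that shares these CD mice. The macrophage markers were higher by 1.55 in mean log2(CPM + 1) in the same CD comparison, and with them as a covariate 18 members were higher and 2 lower, beside 32% and 24.5% of all genes. In HFD mice 2 members were higher and 14 lower at 34 than at 8 weeks, beside 31.7% and 20.8% of all genes. The lower ones included Ehhadh (-1.20 ± 0.27), Pex11a (-0.93 ± 0.24) and Abcd2 (-0.79 ± 0.16), and the higher ones were Pex2 (0.26 ± 0.08) and Abcd4 (0.28 ± 0.08).

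The scaling mattered for the balance of calls. With TMM factors the median of all genes moved from 0.11, 0.14 and 0.07 to 0.00, -0.05 and -0.01, and 4 members were higher and 7 lower at 8 weeks, against 6 and 5, beside 22.2% and 22.3% of all genes. The CD comparison of 34 with 8 weeks gave 8 and 8, against 11 and 6, beside 32.6% and 31.3%. At 20 weeks TMM factors gave 3 higher and 24 lower, beside 27.1% and 31.4%, and at 34 weeks 2 higher and 23 lower, beside 22.2% and 21.8%, so lower calls became more frequent over all genes as well. With the mice of each time fitted separately, 34 weeks gave 1 higher and 8 lower, beside 16.4% and 7.39% of all genes. The higher one was Agps, and the lower ones were Pex3, Pex6, Pex11a, Pex16, Pex19, Crat, Pxmp2 and Pxmp4. The fit of all 6 groups shares 1 spread per gene between the times. The SD of the peroxin mean in CD and HFD mice was 0.1 and 0.07 at 8 weeks, 0.21 and 0.11 at 20 weeks, and 0.23 and 0.28 at 34 weeks. Without HFD mouse 3 of 34 weeks the fit of all groups gave 12 lower at 34 weeks. At 8 weeks leaving out HFD mouse 3, 4 or 6 gave 3 lower.

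Genes of the organelle outside the set were counted in the same way. Of 53 such genes listed, 43 were tested. At 8 weeks 13 were higher and 8 lower, beside 29.8% and 15.1% of all genes. At 20 weeks 6 were higher and 18 lower, beside 38.3% and 18.7%, and at 34 weeks 5 and 16, beside 27.5% and 15.7%. The medians were 0.10, -0.19 and -0.25, beside 0.11, 0.14 and 0.07 over all genes. Acot4, an acyl-CoA thioesterase, and Paox, a polyamine oxidase, were lower at all 3 times. Acot4 had means of 21.4 CPM in CD and 5.99 CPM in HFD mice at 8 weeks, 19.2 and 3.57 CPM at 20 weeks, and 6.58 and 3.47 CPM at 34 weeks, with differences of -1.82, -2.10 and -0.78. Mff, which recruits the division GTPase to peroxisomes and mitochondria, was higher at all 3 times, by 0.41, 0.33 and 0.26.

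Among 8 nuclear receptors and coactivators that act on peroxisomal genes, 0 were higher and 5, 4 and 3 lower. Of all genes, 29.8%, 38.3% and 27.5% were higher and 15.1%, 18.7% and 15.7% lower at 8, 20 and 34 weeks. Ppard was lower at all 3 times, with differences of -0.68, -1.01 and -0.40, and so was Rxra, the partner of the PPARs on DR1, with -0.40, -0.52 and -0.38. Pparg, the PPAR with the highest group means (164 to 310 CPM), was not called at 8 and 20 weeks. Its differences then were 0.01 and -0.05 (adjusted p = 0.96 and 0.808), and it was lower at 34 weeks (-0.54, adjusted p = 0.00366). Of 17 mitochondrial fatty acid oxidation genes tested, 3 were higher and 0 lower at 8 weeks, 2 and 4 at 20 weeks, and 2 and 4 at 34 weeks. These counts stand beside the same shares of all genes. The medians were 0.19, -0.11 and -0.20, and most were not called. Cpt1a, which admits fatty acids to mitochondria, was higher at all 3 times, by 0.80, 2.11 and 1.11.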

How the data were processed

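RNA of isolated perigonadal adipocytes was sequenced in 114 samples, 3 technical replicates per mouse. The authors aligned the reads to mm10 with STAR 2.5.2b, counted them on GENCODE vM2 genes with featureCounts of Subread 1.5.1, merged the replicates and deposited CPM values, 1 column per mouse. Each column sums to 1000000, and all 596609 values above 0 were whole reads within 0.1 reads, so reads per mouse could be recovered. Mouse was the unit of replication, and no pair of mice in a group agreed within sampling noise.

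Log2(CPM + 1) of the 10343 genes with a mean above 2 was fitted with limma 3.58.1 (R 4.3.3), with 6 groups, a trended variance and 32 residual degrees of freedom. P-values were two-sided and Benjamini-Hochberg adjusted over all genes tested, separately in each comparison, with a threshold of 0.05. Alternatives were other scalings, pseudocount and filter, edgeR 4.0.16 and DESeq2 1.42.0 on the recovered reads, a macrophage covariate, separate fits, a block and leaving out each mouse. The members and lists were chosen with earlier results of these data known.

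Lowest, median and highest values were given for members called at all 3 times, with a called interaction, called against the trend or without overlap. Where more than 16 of them qualified, those with the largest mean difference were taken, always with Pex5 and Pex7. Positions and promoters are from RefSeq (GRCm38.p6), exons from GENCODE vM21, and the thiolase transcripts were aligned with blastn 2.17.0.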

Additional observations from a re-analysis of the deposited data

Results flagged for a closer look

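In 4 of 198 sets of a member in a group, 1 mouse stood apart by Dixon's ratio (its gap to the next mouse over the whole range), and chance gives about 1 in 20. Pex5 was lowest in CD mouse 1 at 20 weeks, at 123 CPM against 167 to 187 CPM in the others (ratio 0.731). Acaa1b was lowest in CD mouse 2 at 8 weeks, at 36.8 CPM against 47.5 to 53.4 CPM (ratio 0.686). Decr2 was lowest in CD mouse 6 at 8 weeks, at 18.5 CPM against 22.6 to 24.4 CPM (ratio 0.725). Agps was highest in CD mouse 1 at 20 weeks, at 53.6 CPM against 37.9 to 40.7 CPM (ratio 0.796). CD mouse 1 at 20 weeks was thus in 2 of the 4 sets, and it had the lowest peroxin mean of its group.

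The diet difference itself differed between times in 12 cases by the interaction term of the limma fit. From 8 to 20 weeks it changed by -0.97 in Pecr and -0.75 in Pxmp4, and from 20 to 34 weeks by -0.63 in Pex26 and -0.99 in Acaa1b. From 8 to 34 weeks it changed by -1.83 in Acaa1b, -0.92 in Pex11a, -0.84 in Pex16, -0.65 in Gnpat, -0.64 in Pxmp4, -0.53 in Pex19, -0.45 in Hsd17b4 and -0.40 in Pex10, of which the last was lost in 8 of 9 other settings. All 12 are decreases, and the comparisons share mice.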

How the results depend on the processing

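The counts of members called between diets, and between 34 and 8 weeks in CD mice, stayed within 1.5 times in every setting tried except these. No other setting is given for comparisons within HFD mice. Within CD mice at 20 against 8 weeks 0 were called, with 1 in DESeq2. Asking also for a 2-fold difference left 1 higher and 0 lower at 8 weeks, beside 9.09% and 2.43% of all genes. It left 0 and 3 at 20 weeks, beside 14.4% and 3.57%, and 0 and 1 at 34 weeks, beside 8.58% and 1.28%. Between 34 and 8 weeks in CD mice it left 1 and 0, beside 10% and 5.3%. The macrophage covariate left 1 lower at 8 weeks, 11 lower at 20 weeks, 1 higher and 3 lower at 34 weeks, and 18 higher and 2 lower in the CD comparison. It also turned Abcd2 at 20 weeks to 0.04 (adjusted p = 0.836). Separate fits left 1 higher and 8 lower at 34 weeks. The cause was not tested. Without each mouse in turn the counts were 5 to 6 higher and 3 to 6 lower at 8 weeks, 3 to 4 and 15 to 21 at 20 weeks, 1 to 3 and 12 to 23 at 34 weeks (12 without HFD mouse 3, and 1 higher without HFD mouse 2 or 3), and 11 to 12 and 4 to 8 in the CD comparison.

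Alternatives for the change of the diet difference between times were chosen after seeing the data. No share of all genes is given for them, so these counts cannot be set against the background of the same setting. From 8 to 20 weeks, with 2 lower, DESeq2 gave 6, the covariate 4 and the 2-fold limit 0, with 1 to 7 without each mouse. From 20 to 34 weeks, with 2 lower, no filter, TMM, median-of-ratios factors, DESeq2 and the replicate block gave 1, edgeR and the 2-fold limit gave 0, and leaving out mice gave 0 to 3. From 8 to 34 weeks, with 8 lower, no filter, TMM and edgeR gave 5 and the 2-fold limit 1, with 4 to 13 without each mouse.

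The mouse numbers do not pair the mice: of 18 pairs with the same number 8 had a correlation above 0.1 (-0.509 to 0.529), and in 1 pair each mouse correlated best with its own number. With the number as a replicate block 6 members were higher and 5 lower at 8 weeks, beside 29.2% and 15.1% of all genes. The block gave 3 and 18 at 20 weeks, beside 38.3% and 18.8%, and 3 and 19 at 34 weeks, beside 28% and 15.7%. In the CD comparison it gave 12 and 4, beside 39.2% and 26%. At 8 weeks depth and diet cannot be told apart, since every HFD library was deeper. Of 99 diet differences, 99 kept their call with the other pseudocount, 92 without a filter, 86 with TMM factors and 87 with median-of-ratios factors. The count was 89 in edgeR, 88 in DESeq2, 78 in separate fits, 62 with the covariate and 46 with the 2-fold limit. Direction was compared only where a difference was called in either fit. Differences called in neither could change sign, as that of Pex11a at 8 weeks did with the covariate (-0.28 to 0.09).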
